A study of Sus scrofa with 63 samples.

Results

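The comparison described here set pig skin taken 48 h after contact with sulfur mustard against unexposed control skin taken at the same time. Its members were the 3 exposed and the 3 control arrays that the labels give for 48 h, 6 of the 63 arrays of the series, with every probe set other than the array's own controls (23999 of 24123). Liquid undiluted sulfur mustard, 400 µL per site for 8 min, was placed on the belly skin of female Yorkshire crossbred pigs, with no age given, to make round lesions of 3 cm, and control sites on the animals carried no agent. A further animal was prepared in the same way but never exposed, and its site gave the single sham array of 48 h. RNA (10 µg) came from punch biopsies of 8 mm and was hybridised to 1 Affymetrix porcine array per biopsy. The labels name 3 animals for the exposed and control sites of a time point and 1 for the sham, but do not say that a replicate number marks an animal. P values below come from a fit of all 63 arrays, so they rest on the spread between arrays within the groups of the whole series, which may be partly technical.

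Sulfur mustard is an oily blistering agent that enters skin quickly and alkylates DNA, proteins and glutathione. Basal keratinocytes, the dividing cells at the base of the epidermis, are its best known target, and their death separates the epidermis from the dermis. Redness, blisters, an influx of leukocytes and a slow repair follow. A biopsy holds all layers together, so in these bulk samples fewer cells of a type and less RNA per cell cannot be told apart.

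The histology scores deposited with the arrays place the lesions. Epidermal necrosis and dermal necrosis were each scored 4 in exposed samples 1, 2 and 3, against 0 in every control sample and in the sham sample. Pustular epidermitis was scored 2, 3 and 1, vesicles 2, 2 and 1, and follicular damage 2, 2 and 1 in exposed samples 1 to 3, against 0 in all control samples. Exposed sample 3 thus had the lowest score for the last 3 features. Markers of differentiated epidermis were present in the control arrays. KRT1 and KRT10, the keratin pair of the layers above the basal layer, had log2 signals of 14.05, 14.13 and 14.15 and of 14.03, 14.10 and 14.17 in control arrays 1 to 3. KRT5, KRT14 and COL1A1 were not named by the annotation used here, so basal keratinocytes were followed through other genes.

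All 48 h arrays shared 1 batch each of RNA extraction, labelling and scanning in the labels. They did not hold equal levels of skeletal muscle messages. Skeletal muscle lies under belly skin, but the source of these messages was not tested. The muscle score, the mean log2 signal of 25 skeletal muscle genes, was 11.88, 9.12 and 12.50 in exposed arrays 1 to 3, against 13.11, 13.20 and 10.50 in control arrays 1 to 3, and 7.75 in the sham array. Exposed array 2 and control array 3 were the lowest of their groups, and the groups overlapped (difference -1.10, two-sided exact permutation test p = 0.5, n = 3 each, where 0.1 is the smallest p that 3 against 3 arrays can give). Without any 1 array the difference was -1.99 (without control array 3) to -0.08 (without exposed array 2). The mean of 17 adipocyte genes differed by 0.01 (p = 1, exact permutation test, n = 3 each). Over probe sets, the deviations of exposed array 3 from its group were most like those of control array 1 from its own (r = 0.595, a description over probe sets that share both libraries). After the muscle score was taken out this value was 0.514, and exposed array 2 with control array 2 gave 0.594. Among the 5 differences between 3' and 5' control probe sets, 1 pair for actin did not overlap between groups, at 0.37, 0.39 and 0.21 in exposed arrays against 0.52, 0.54 and 0.52 in control arrays, and its part in the results was not tested. The SD of the difference between 2 arrays over probe sets was 0.251 to 0.429 within the exposed group and 0.36 to 0.419 within the control group.

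**Figure D1:**
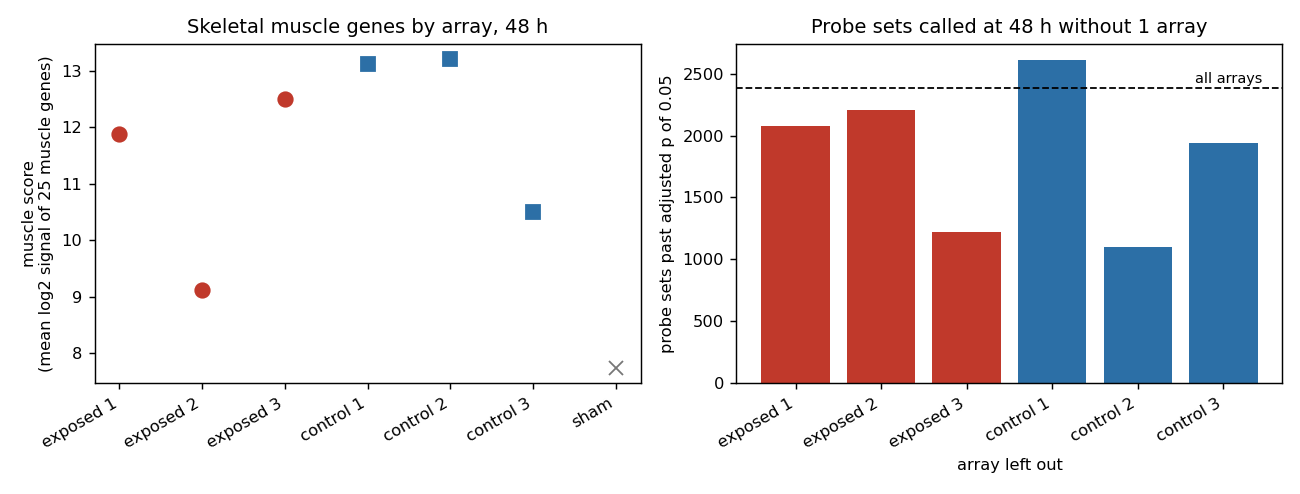
Left, the muscle score of each 48 h array (mean log2 signal of 25 skeletal muscle genes), with exposed arrays as red circles, control arrays as blue squares and the sham array as a grey cross. Right, bars of how many probe sets passed the threshold (adjusted p of 0.05) when the array named on the axis is left out, with the dashed line at the 2387 found with all arrays. The exposed and control muscle scores overlap, and the count is lowest without control array 2 (1097) and without exposed array 3 (1221).

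Between exposed and control skin 2387 of 23999 probe sets passed the threshold of an adjusted p of 0.05 (9.95%; limma on the deposited log2 signals, Benjamini-Hochberg over all probe sets), 1401 higher (5.84%) and 986 lower (4.11%). Of the probe sets called, 1269 carried 1 gene symbol and 1118 did not and are not described further. Over the 6765 named genes, each read through its brightest probe set, 971 were called (14.4%), 776 higher (11.5%) and 195 lower (2.88%). At least 2-fold differences were found for 140 genes that rose (2.07%) and 31 that fell (0.458%), and at least 4-fold for 21 and 6. All 3 exposed arrays lay above all 3 control arrays for 1420 genes (21%) and below them for 570 (8.43%). The arrays numbered 3 had another sacrifice day than those numbered 1 and 2. With that day as a term 2443 probe sets were called, and within the first day, with 2 arrays a group, 1274, while the second day held 1 array a group and could not be tested alone. The median difference over all genes was 0.0576 on the log2 scale, and the median standard error (SE) over probe sets 0.132. Fitted on the 6 arrays of the comparison alone, which leaves 4 residual degrees of freedom against 36, 924 probe sets were called. None of these fits treats same-numbered arrays as pairs. With the replicate number as a block, all exposed and control arrays gave 3373 and these 6 arrays alone 163. From the 2387 of the main fit the count fell to 1221 without exposed array 3 and to 1097 without control array 2. It was 2685 with the muscle score as a covariate.

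The 2 largest rises were those of an enzyme and a chemokine whose signals were near the bottom of the scale in control skin. ARG1, arginase 1, which splits arginine into urea and ornithine, had log2 signals of 10.57, 10.28 and 9.80 in exposed arrays 1 to 3, against 5.38, 5.03 and 4.96 in control arrays 1 to 3. Its difference was 5.10 ± 0.74 (SE; 34.2-fold, limma adjusted p = 9.35e-06), and the groups lay far apart. CXCL8, the main neutrophil-attracting chemokine, had 10.88, 9.70 and 8.42 in exposed arrays, against 4.94, 4.45 and 4.86 in control arrays. It rose by 4.91 ± 0.70 (30.1-fold, limma adjusted p = 6.23e-06), with exposed array 1 highest and exposed array 3 lowest. The sham array was as low as the controls, at 5.06 for ARG1 and 4.35 for CXCL8.

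**Figure D2:**
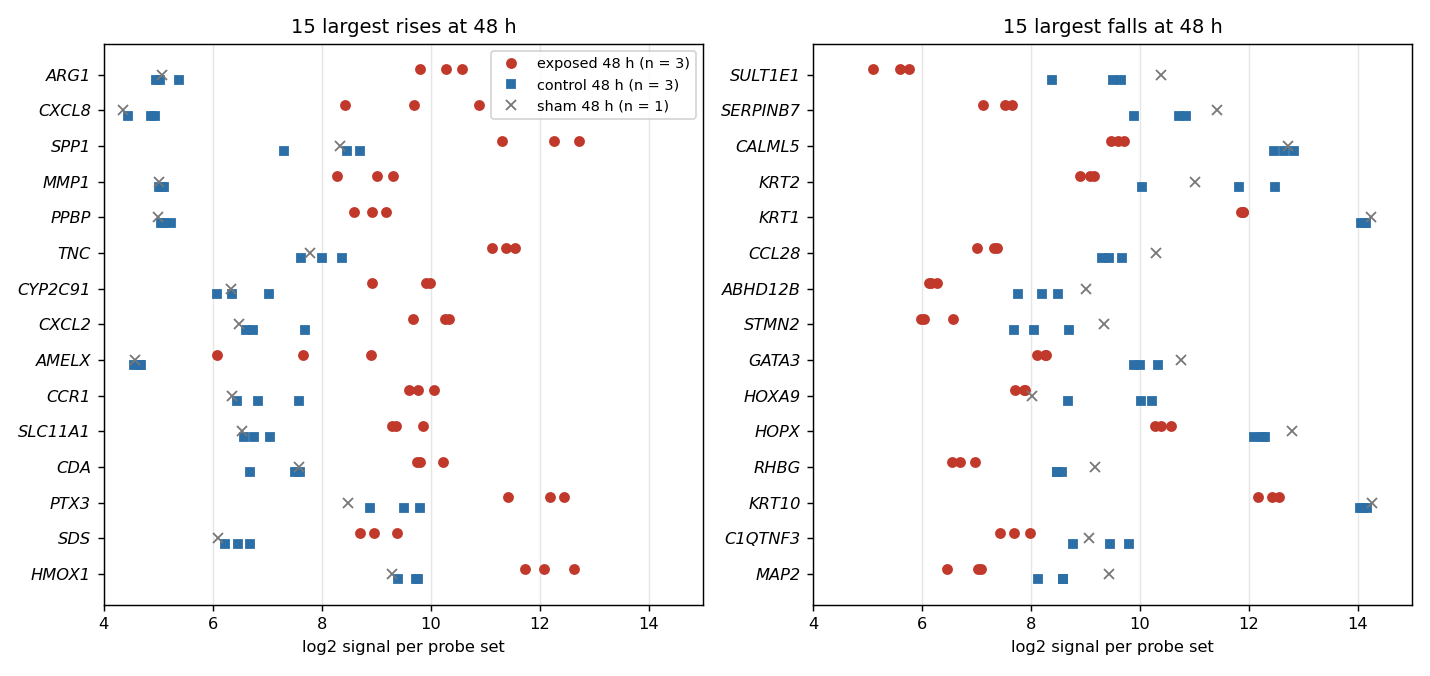
Log2 signal per probe set at 48 h for the 15 genes with the largest rises (left) and the 15 with the largest falls (right), with exposed arrays as red circles, control arrays as blue squares and the sham array as a grey cross. The 3 exposed arrays do not overlap the 3 control arrays for any of the 30 genes. Over all genes, all exposed arrays lie above all control arrays for 21% and below them for 8.43%. The 30 genes were chosen from these same arrays, past the threshold and with the same sign in the 3 same-numbered pairs. Their separation therefore follows largely from that choice and is no separate test. HOXA9 in the sham array (8.02) lies near the exposed arrays.

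Of 36 measured chemokines, cytokines and their receptors 13 rose and 1 fell, where 11.5% of all genes rose and 2.88% fell. Every count of rises or falls against control at 48 h in a list below is to be read against these shares. The median of the list was 0.519, against 0.0576 over all genes. PPBP, a platelet-derived chemokine precursor, had 9.18, 8.60 and 8.92 in exposed arrays, against 5.10, 5.05 and 5.24 in control arrays, a rise of 3.77 ± 0.50 (13.6-fold, limma adjusted p = 1.59e-06). CXCL2, a further neutrophil attractant, had 10.34, 9.68 and 10.27 in exposed arrays, against 6.73, 6.61 and 7.69 in control arrays (8.53-fold, limma adjusted p = 1.46e-05). Neither gene had overlapping groups. CCL2, which draws monocytes, rose 4.87-fold (adjusted p = 3.24e-05). IL10, a cytokine that damps inflammation, rose 2.33-fold (adjusted p = 0.000787). IL6, best known as an inducer of the acute phase, rose 2.58-fold (adjusted p = 0.0122), a call lost without exposed array 3 (0.98, adjusted p = 0.17) or control array 2 (1.27, adjusted p = 0.0691).

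On the receptor side CCR1, which binds several CC chemokines, had 10.07, 9.60 and 9.76 in exposed arrays, against 6.83, 6.44 and 7.59 in control arrays (7.24-fold, limma adjusted p = 6.15e-09). TLR2 and TLR4, receptors for microbial products, rose 3.49-fold and 2.37-fold (adjusted p = 0.000692 and 0.00039). PTX3, a soluble pattern recognition protein of the pentraxin family, had 12.45, 11.42 and 12.20 in exposed arrays, against 9.51, 8.89 and 9.80 in control arrays (6.15-fold, limma adjusted p = 2.49e-06). The receptors CXCR4, TNFRSF1B and IL1R1 completed the rises, but CXCR4 was not called without any 1 array but control array 1 (0.81 to 1.16, adjusted p = 0.0509 to 0.174), IL1R1 without any but exposed array 2 (0.49 to 0.64, adjusted p = 0.0583 to 0.139), or TNFRSF1B without control array 2 (0.79, adjusted p = 0.0678). Not all of the classical mediators passed the test. The values for TNF, IL1A and IL1B were -0.00, -0.24 and 0.39 (adjusted p = 0.999, 0.834 and 0.763), and that for PTGS2, the inducible cyclooxygenase, was 0.31 (adjusted p = 0.727).

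The 1 chemokine that fell was CCL28, which epithelial cells make. It had 7.00, 7.31 and 7.38 in exposed arrays, against 9.30, 9.66 and 9.43 in control arrays, and fell by 2.24 ± 0.36 on the log2 scale (4.72-fold lower, limma adjusted p = 5.41e-05). CCL27, the other epithelial chemokine of the list, differed by -0.62 (adjusted p = 0.306).

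Among 8 leukocyte adhesion genes 5 rose and none fell, with a median of 0.946. ICAM1, the endothelial ligand that stops rolling leukocytes, had 10.22, 10.29 and 10.45 in exposed arrays, against 8.60, 8.20 and 9.01 in control arrays (3.29-fold, limma adjusted p = 3.33e-05). Its leukocyte partner chain ITGB2 rose 2.89-fold (adjusted p = 0.000337). The selectins SELE and SELP, which start the rolling, rose 2.24-fold and 1.66-fold (adjusted p = 0.00487 and 0.00454), SELP not without control array 2 (0.60, adjusted p = 0.0627). SELE was the single riser among 19 endothelial genes, whose median was 0.0858. VCAM1 and the vessel marker PECAM1 gave 0.43 and 0.09 (adjusted p = 0.256 and 0.82).

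Markers of neutrophils and macrophages had the highest median of the 33 lists (1.29), and 17 of 26 rose while none fell. Their mean log2 signal was 9.71, 9.75 and 9.80 in exposed arrays 1 to 3, against 8.46, 8.46 and 8.79 in control arrays 1 to 3, and 8.30 in the sham array. SLC11A1, a metal transporter of the phagosome, had 9.86, 9.36 and 9.30 in exposed arrays, against 6.76, 6.58 and 7.06 in control arrays (6.53-fold, limma adjusted p = 1.64e-09). Subunits of the phagocyte oxidase rose, NCF4 by 3.79-fold and GP91-PHOX, the catalytic subunit, by 3.45-fold (adjusted p = 1.08e-05 and 0.000357). The adaptor chains TYROBP and FCER1G rose 2.75-fold and 3.03-fold, and the macrophage receptors CD14, CD163 and MRC1 rose 2.93-fold, 2.89-fold and 2.47-fold.

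Neutrophil granule and calprotectin genes were less even. S100A9, a calcium-binding protein of neutrophils, had 9.67, 9.75 and 10.09 in exposed arrays, against 8.03, 7.00 and 7.32 in control arrays (5.24-fold, limma adjusted p = 0.0213). Its call was lost without exposed array 3 (2.26, adjusted p = 0.0904), control array 2 (2.16, adjusted p = 0.112) or control array 3 (2.32, adjusted p = 0.0598). LTF, lactoferrin, rose 3.03-fold (adjusted p = 0.0215), again not without exposed array 3 (1.37, adjusted p = 0.137), control array 2 (1.49, adjusted p = 0.102) or control array 3 (1.51, adjusted p = 0.0698). S100A12, also counted as a rise, lost its call without any 1 of the 6 arrays (1.08 to 1.19, adjusted p = 0.069 to 0.145). S100A8 lost its call without exposed array 1, exposed array 2, control array 1 or control array 2 (0.82 to 0.87, adjusted p = 0.0956 to 0.141). Among the other markers FCGR3A lost its call without any 1 array but control array 3 (0.94 to 1.15, adjusted p = 0.0671 to 0.209). The primary granule proteases ELANE and PRTN3, which neutrophil precursors make, gave -0.08 and -0.01 (adjusted p = 0.782 and 0.981). The count of 17 was 13 to 14 without any 1 of the 6 arrays, 17 with a covariate for the muscle score, and 10 without exposed array 3 and control array 1 together.

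Lymphocyte markers did not follow. Of 14 measured, IL2RG, the shared cytokine receptor chain that other leukocytes also carry, rose (2.04-fold, adjusted p = 0.0354) and none fell, with a median of 0.074. CD3E, CD3D and CD3G, chains of the T cell receptor complex, gave 0.06, 0.07 and -0.10 (adjusted p = 0.964, 0.918 and 0.936). The IL2RG call was lost when any of 5 arrays was left out, all but control array 3 (0.87 to 1.08, adjusted p = 0.0544 to 0.15). Of 12 MHC class II and dendritic cell genes 3 rose by small amounts (median 0.488): the costimulatory ligands CD86 (1.7-fold) and CD80 (1.23-fold), and SLA-DMB (1.65-fold), a chain of the peptide-loading helper. Without control array 2 all 3 of these calls were lost (CD86 0.67, adjusted p = 0.0554; CD80 0.34, adjusted p = 0.0811; SLA-DMB 0.58, adjusted p = 0.237), without control array 1 those of CD80 (0.21, adjusted p = 0.242) and SLA-DMB (0.63, adjusted p = 0.125), without exposed array 2 the same 2 genes (0.31 and 0.73, adjusted p = 0.0798 and 0.075), and without exposed array 3 likewise (0.24 and 0.58, adjusted p = 0.273 and 0.24).

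Complement and acute phase genes rose in 9 of 23 cases, where 11.5% of all genes rose, with none falling and a median of 0.401. C3, the central component, had 10.47, 10.75 and 10.81 in exposed arrays, against 8.65, 8.81 and 9.10 in control arrays (3.53-fold, limma adjusted p = 0.0101). CFB and CFP, factor B and properdin of the alternative pathway, rose 2.82-fold and 2.72-fold (adjusted p = 0.000115 and 0.000117). C4A of the classical pathway rose 2.16-fold (adjusted p = 0.0206), a call that was lost without exposed array 3 (0.96, adjusted p = 0.13) or control array 2 (1.00, adjusted p = 0.113). The count of 9 was 4 without exposed array 3, 4 without control array 2, 2 without exposed array 3 and control array 1 together, and 2 within the first sacrifice day. CRP and HP, acute phase proteins of the liver, gave -0.02 and 0.27 (adjusted p = 0.969 and 0.619).

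Interferon response genes were highest in the arrays numbered 3 of both groups. Their mean log2 signal was 9.20, 9.15 and 10.00 in exposed arrays 1 to 3, against 8.80, 8.72 and 10.10 in control arrays 1 to 3, and 8.33 in the sham array. The labels give the arrays numbered 3 and the sham another sacrifice day than the arrays numbered 1 and 2. Of 24 members 2 rose (median 0.206), where 11.5% of all genes rose. These were IFI30, a lysosomal thiol reductase of antigen processing, by 2.66-fold (adjusted p = 1.08e-06), and IRF3 by 1.32-fold (adjusted p = 0.0435). The IRF3 call was lost without exposed array 1 (0.40, adjusted p = 0.0882), exposed array 3 (0.32, adjusted p = 0.256), control array 2 (0.28, adjusted p = 0.315) or control array 3 (0.40, adjusted p = 0.0909). ISG15 gave 1.07 and RSAD2 -0.72 (adjusted p = 0.454 and 0.687).

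**Figure D3:**
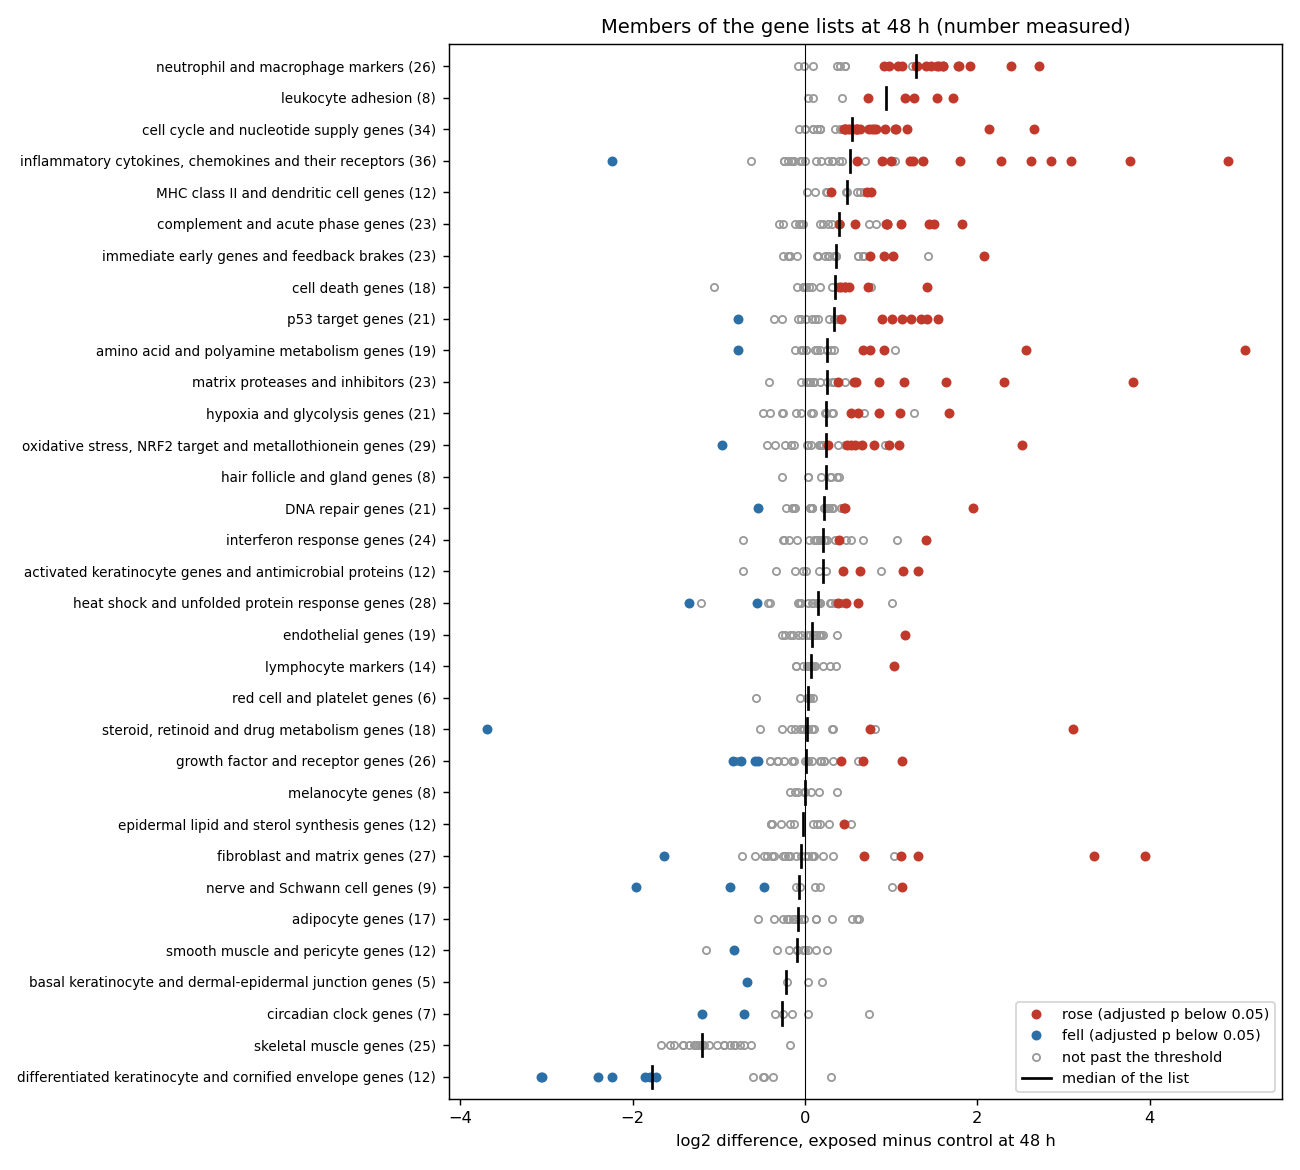
Log2 difference, exposed minus control at 48 h, of each measured member of the 33 gene lists, with the number measured in parentheses. Red dots rose and blue dots fell past an adjusted p of 0.05, open grey circles did not pass, and the black bar is the list's median. Neutrophil and macrophage markers have the highest median (1.29) and differentiated keratinocyte genes the lowest (-1.77); none of the 25 skeletal muscle genes passed.

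Among the 12 measured genes that mark keratinocyte differentiation or build the cornified envelope, 7 fell and none rose, with a median of -1.77, and in 11 of 12 all exposed arrays lay below all control arrays (8.43% over all genes). KRT1 had 11.88, 11.85 and 11.89 in exposed arrays, against 14.05, 14.13 and 14.15 in control arrays, and fell by 2.24 ± 0.27 on the log2 scale (4.72-fold lower, limma adjusted p = 2.45e-07). Its partner KRT10 had 12.16, 12.55 and 12.42 in exposed arrays, against 14.03, 14.10 and 14.17 in control arrays (3.31-fold lower, adjusted p = 9.13e-06). The groups lay well apart for both keratins, and the sham array, at 14.23 and 14.26, was on the control side.

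CALML5, a calcium-binding protein of the late epidermis, had 9.60, 9.47 and 9.70 in exposed arrays, against 12.64, 12.46 and 12.83 in control arrays (8.28-fold lower, limma adjusted p = 1.97e-08). SERPINB7, a protease inhibitor of the upper epidermis, had 7.52, 7.64 and 7.11 in exposed arrays, against 9.88, 10.71 and 10.85 in control arrays (8.33-fold lower, limma adjusted p = 1.17e-07). The transcription factors GATA3 and HOPX, both active in keratinocyte differentiation, fell 3.62-fold and 3.49-fold (adjusted p = 8.62e-07 and 2.61e-06). KRT2, the keratin of the uppermost living layers, had 9.15, 8.90 and 9.08 in exposed arrays, against 10.03, 12.48 and 11.81 in control arrays (5.27-fold lower, adjusted p = 0.00772). Control array 1 was the lowest control for KRT2, and without control array 2 the call was lost (-1.88, adjusted p = 0.1). The 5 members that did not pass were OVOL1, KLK7, PPL, CST6 and IVL, at -0.60 to 0.30, with involucrin (IVL) the highest.

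Of 5 measured genes of the basal layer and its junction 1 fell and none rose (median -0.214), where 2.88% of all genes fell. In 3 of the 5 all exposed arrays lay below all control arrays, against 8.43% over all genes. DST, which gives the plaque protein that ties keratins to hemidesmosomes, had 10.20, 10.08 and 10.01 in exposed arrays, against 10.96, 10.97 and 10.38 in control arrays (1.59-fold lower, limma adjusted p = 0.00351). It was not called against the sham array, in the fit of the 6 arrays of 48 h alone, or without exposed array 3 and control array 1 together. COL17A1 and ITGA6, hemidesmosome components, gave -0.21 and 0.03 (adjusted p = 0.457 and 0.942), and COL7A1, the anchoring fibril collagen, gave -0.67 (adjusted p = 0.0915). PERP, a desmosome protein and p53 target, fell 1.71-fold (adjusted p = 5.5e-05).

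Genes that keratinocytes raise on injury rose in 4 of 12 cases (median 0.205). STEAP4, a metalloreductase, rose 2.48-fold, AREG, an EGF receptor ligand, 2.2-fold, and the calcium-binding proteins S100A11 and S100A10 1.56-fold and 1.36-fold (adjusted p = 0.0421, 0.0013, 3.98e-05 and 0.00723). The STEAP4 call was lost without any 1 of 5 arrays, all but control array 3 (1.07 to 1.42, adjusted p = 0.0707 to 0.233), and that of S100A10 without control array 2 (0.39, adjusted p = 0.0611). Of 12 epidermal lipid and sterol genes 1 rose, ELOVL1, a fatty acid elongase (1.37-fold, adjusted p = 0.00767; median -0.0171), and its call was lost without exposed array 3 (0.36, adjusted p = 0.0923), control array 2 (0.38, adjusted p = 0.0766) or control array 3 (0.39, adjusted p = 0.0535).

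The fibroblast and matrix list had 27 measured members, with 5 rises, 1 fall and a median of -0.0481, where 11.5% of all genes rose and 2.88% fell. SPP1, osteopontin, a secreted adhesion protein that macrophages also make, had 12.73, 12.27 and 11.31 in exposed arrays, against 8.71, 7.30 and 8.47 in control arrays (15.4-fold, limma adjusted p = 8.66e-07). TNC, tenascin C, a matrix protein of healing wounds, had 11.38, 11.13 and 11.54 in exposed arrays, against 8.37, 7.62 and 8.00 in control arrays (10.2-fold, adjusted p = 2.45e-07). Both genes had groups that lay more than 2 log2 units apart. THBS1, FBLN1 and VCAN, also matricellular or pericellular, rose 2.48-fold, 2.16-fold and 1.61-fold (adjusted p = 0.00863, 0.000371 and 0.00972), THBS1 not without control array 2 (1.21, adjusted p = 0.0565) and VCAN not without control array 1 (0.41, adjusted p = 0.143).

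The fibrillar collagen genes COL1A2 and COL3A1 gave -0.36 and 0.04 (adjusted p = 0.729 and 0.965), and DCN, decorin, -0.00 (adjusted p = 0.997). C1QTNF3, a secreted collagen-like protein, was the 1 member that fell (3.11-fold lower, adjusted p = 0.0167). It had 7.69, 7.98 and 7.42 in exposed arrays, against 8.77, 9.44 and 9.80 in control arrays. Its call was lost without exposed array 3 (-1.50, adjusted p = 0.0895), control array 2 (-1.59, adjusted p = 0.0713) or control array 3 (-1.41, adjusted p = 0.0882).

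Matrix proteases and their inhibitors rose in 8 of 23 cases and fell in none (median 0.255), where 11.5% of all genes rose. The count was 6 to 7 without any 1 array. MMP1, interstitial collagenase, had 9.31, 9.01 and 8.29 in exposed arrays, against 5.10, 5.06 and 5.02 in control arrays (14-fold, limma adjusted p = 1.69e-05). TIMP1, a broad inhibitor of these enzymes, had 13.75, 13.48 and 13.57 in exposed arrays, against 11.45, 10.84 and 11.57 in control arrays (4.96-fold, adjusted p = 3.43e-09). PLAU, the urokinase plasminogen activator, rose 3.11-fold (adjusted p = 2.45e-07), and CTSS, a lysosomal protease of macrophages and other antigen-presenting cells, 2.22-fold (adjusted p = 0.0018). The other collagenase MMP13 gave 0.06 (adjusted p = 0.952), MMP3 0.04 (adjusted p = 0.888) and MMP9 0.09 (adjusted p = 0.811). Of the other rises ADAM9 lost its call without any 1 array but control array 3 (0.68 to 0.95, adjusted p = 0.0626 to 0.155). CTSD lost its call without exposed array 1, exposed array 3, control array 2 or control array 3 (0.46 to 0.54, adjusted p = 0.0594 to 0.0934).

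The transcription factor p53 is activated by DNA damage. Of 21 of its target genes 8 rose and 1, PERP, fell (median 0.336), where 11.5% of all genes rose and 2.88% fell. CDKN1A, the p21 cell cycle inhibitor, had 11.87, 11.70 and 11.68 in exposed arrays, against 10.48, 10.50 and 10.22 in control arrays (2.55-fold, limma adjusted p = 2.45e-07). GADD45A, a growth arrest gene, rose 2.92-fold, and BAX, which opens the outer mitochondrial membrane, 2.68-fold (adjusted p = 9.13e-06 and 1.31e-05). PHLDA3, PMAIP1, XPC and FAS also rose. Of these, FAS, a death receptor, was not called without exposed array 1, exposed array 3 or control array 2 (0.39 to 0.42, adjusted p = 0.0571 to 0.0667), nor PMAIP1, a BH3-only protein, without exposed array 1, control array 1 or control array 2 (0.77 to 0.98, adjusted p = 0.0616 to 0.16). ZMAT3, an RNA-binding p53 target, had 10.70, 10.66 and 9.50 in exposed arrays, against 8.84, 9.15 and 9.20 in control arrays (2.34-fold, adjusted p = 0.013), and was lowest of the exposed arrays in array 3. Its call was lost without exposed array 1 (1.02, adjusted p = 0.0796) or exposed array 2 (1.04, adjusted p = 0.0719), and the list's count was 5 without exposed array 1.

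MGMT removes alkyl groups from guanine in DNA and is used up in doing so. It had 11.01, 11.07 and 10.95 in exposed arrays, against 9.30, 8.68 and 9.20 in control arrays, a rise of 1.95 ± 0.19 (3.86-fold, limma adjusted p = 3.43e-09), and its exposed arrays agreed within 0.12. It had the largest of 3 rises among 21 DNA repair genes (median 0.221), a count near the 11.5% of all genes that rose. The others were ERCC1 of nucleotide excision and crosslink repair (1.37-fold, adjusted p = 0.00112) and FANCL of the Fanconi crosslink pathway (1.39-fold, adjusted p = 0.00803), whose call was lost without exposed array 2 (0.38, adjusted p = 0.0652). ATM, the kinase that senses double-strand breaks, had 8.75, 8.74 and 7.81 in exposed arrays, against 8.59, 9.28 and 9.06 in control arrays (1.45-fold lower, adjusted p = 0.0224). Those groups overlapped, exposed array 3 being the lowest, and without it the value was -0.23 (adjusted p = 0.479); the call was also lost without control array 2 (-0.39, adjusted p = 0.227) or control array 3 (-0.50, adjusted p = 0.0799).

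Cell cycle and nucleotide supply genes rose in 20 of 34 cases and fell in none, with a median of 0.544. Their mean log2 signal was 9.09, 9.18 and 9.08 in exposed arrays, against 8.48, 8.52 and 8.50 in control arrays. CDA, cytidine deaminase, which salvages pyrimidines and is abundant in neutrophils too, had 10.23, 9.75 and 9.80 in exposed arrays, against 7.51, 6.68 and 7.60 in control arrays (6.32-fold, limma adjusted p = 1.13e-06). TYMS, which makes thymidylate, had 10.42, 11.12 and 10.16 in exposed arrays, against 8.00, 8.94 and 8.33 in control arrays (4.42-fold, adjusted p = 5.18e-07). The 2 groups did not overlap for either gene.

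The other members that rose did so by less. UBE2C, a mitotic ubiquitin-conjugating enzyme, had 9.71, 9.77 and 9.75 in exposed arrays, against 8.58, 8.55 and 8.56 in control arrays (2.27-fold, limma adjusted p = 3.61e-05). PCNA, the sliding clamp of DNA replication and repair, had 10.70, 10.65 and 10.49 in exposed arrays, against 9.55, 9.55 and 9.54 in control arrays (2.09-fold, adjusted p = 1.59e-06). RRM2, BIRC5, AURKA, AURKB and PLK1 were among the other rises, AURKA not without exposed array 3 (0.56, adjusted p = 0.0921), control array 2 (0.52, adjusted p = 0.132) or control array 3 (0.54, adjusted p = 0.0848), and AURKB not without exposed array 3 (0.36, adjusted p = 0.0618). So were MCM2, MCM3 and MCM5 of the replicative helicase, but MCM3 and MCM5 lost their calls without exposed array 3 (0.51 and 0.43, adjusted p = 0.0717 and 0.137) or control array 2 (0.51 and 0.53, adjusted p = 0.0724 and 0.0649), and MCM2 without any 1 array but exposed array 1 (0.40 to 0.48, adjusted p = 0.0745 to 0.152). The list's count was 15 to 20 without any 1 array, 20 with a covariate for the muscle score, 13 without exposed array 3 and control array 1 together, 12 within the first sacrifice day, and 8 with the sham array in place of the control arrays. The last count has less precision, the sham being a single array.

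Cell death genes rose in 7 of 18 cases (median 0.353), where 11.5% of all genes rose. The 7 were BAX, the pyroptosis effector GSDMD (1.66-fold, adjusted p = 0.000589), BAD (1.42-fold, adjusted p = 0.00284), DIABLO (1.38-fold, adjusted p = 0.00596), CASP8, FAS and BID. The count was 3 without exposed array 3, 4 without control array 2 and 2 within the first sacrifice day, and the call of DIABLO was lost without either (0.38 and 0.32, adjusted p = 0.0755 and 0.122). CASP8 lost its call without exposed array 2, exposed array 3 or control array 1 (0.34 to 0.47, adjusted p = 0.0613 to 0.14), and BID without exposed array 1, exposed array 3, control array 2 or control array 3 (0.31 to 0.41, adjusted p = 0.0796 to 0.288). TNFSF10, the death ligand TRAIL, gave -1.05 (adjusted p = 0.158).

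Of 29 oxidative stress genes 9 rose and 1 fell (median 0.241), with 5 rises within the first sacrifice day or without exposed array 3 and control array 1 together. HMOX1, which breaks down heme and is a classical stress gene of macrophages, had 12.64, 11.73 and 12.08 in exposed arrays, against 9.73, 9.40 and 9.76 in control arrays (5.74-fold, limma adjusted p = 1.64e-09). SOD2 of the mitochondria rose 2.13-fold (adjusted p = 0.0117), a call lost without exposed array 1 (0.98, adjusted p = 0.0547), and the glutathione transferase GSTO1 rose 1.75-fold (adjusted p = 0.00085). NQO1, a quinone reductase under NRF2, had 10.73, 12.12 and 10.85 in exposed arrays, against 10.51, 10.09 and 10.21 in control arrays (1.95-fold, adjusted p = 0.0481). The value in exposed array 2 stood apart, and without that array the difference was 0.52 (adjusted p = 0.394); without control array 2 it was 0.88 (adjusted p = 0.191) and without control array 3 0.94 (adjusted p = 0.114). The glutathione synthesis genes GCLC and GCLM, also under NRF2, gave 0.47 and 0.07 (adjusted p = 0.235 and 0.748). MT3, a metallothionein, fell 1.95-fold (adjusted p = 0.0122), a call lost without control array 2 (-0.95, adjusted p = 0.0528).

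Heat shock and unfolded protein response genes rose in 3 and fell in 2 of 28 cases (median 0.154). The rises were near the 11.5% of all genes that rose, and 2.88% of all genes fell. HSPA4, PDIA4 and PDIA3, a chaperone and 2 disulfide isomerases, rose 1.53-fold, 1.39-fold and 1.31-fold (adjusted p = 0.0101, 0.0414 and 0.0434), and none of the 3 was called without control array 1 (0.47, 0.49 and 0.30, adjusted p = 0.0765, 0.0701 and 0.182). PDIA4 also lost its call without any 1 of the exposed arrays or control array 2 (0.40 to 0.52, adjusted p = 0.0568 to 0.22), and PDIA3 without exposed array 1, exposed array 3 or control array 2 (0.31 to 0.39, adjusted p = 0.0806 to 0.239). HSPA2 fell 2.53-fold and HSP70.2 1.47-fold (adjusted p = 0.0101 and 0.0235), neither without control array 2 (-1.29 and -0.46, adjusted p = 0.0519 and 0.163), the second also not without exposed array 1 (-0.47, adjusted p = 0.108) or exposed array 3 (-0.57, adjusted p = 0.0686).

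Hypoxia and glycolysis genes rose in 5 of 21 cases (median 0.246), where 11.5% of all genes rose. SLC2A3, a glucose transporter of leukocytes and neurons, rose 3.18-fold, ADM, the vasodilator adrenomedullin, 2.14-fold, and ENO1, HK1 and MIF 1.45-fold to 1.81-fold. ADM was not called without control array 2 (0.89, adjusted p = 0.0611), nor HK1 (0.43, adjusted p = 0.0583), and the count was then 3. VEGFA and LDHA gave -0.40 and -0.04 (adjusted p = 0.112 and 0.979). Of 23 immediate early genes and feedback brakes 4 rose (median 0.363), against the same 11.5%. These were NR4A3 by 4.23-fold, FOSL2 by 2.03-fold, CEBPD by 1.89-fold and IER5 by 1.68-fold (adjusted p = 0.00354, 0.00549, 0.00515 and 0.000991). CEBPD was not called without control array 2 (0.69, adjusted p = 0.0877), and FOS and JUN gave 1.43 and -0.20 (adjusted p = 0.16 and 0.763).

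Of 19 amino acid and polyamine genes 5 rose and 1 fell (median 0.256). Beside ARG1, SDS, serine dehydratase, had 9.39, 8.71 and 8.96 in exposed arrays, against 6.46, 6.22 and 6.68 in control arrays (5.91-fold, limma adjusted p = 0.00248). ODC1 and SRM, which make putrescine and spermidine from the ornithine that arginase yields, rose 1.89-fold and 1.6-fold (adjusted p = 0.000284 and 0.0111). ARG2, the mitochondrial arginase, and NOS2, the inducible nitric oxide synthase that uses the same arginine, gave 0.14 and -0.02 (adjusted p = 0.891 and 0.945). PSAT1 of serine synthesis fell 1.72-fold (adjusted p = 0.000827).

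Steroid, retinoid and drug metabolism held the largest fall among the named genes. SULT1E1, estrogen sulfotransferase, had 5.60, 5.76 and 5.10 in exposed arrays, against 8.39, 9.65 and 9.50 in control arrays, and fell by 3.69 ± 0.44 on the log2 scale (12.9-fold lower, limma adjusted p = 2.22e-07). CYP2C91, a porcine cytochrome P450 of the CYP2C family, had 9.98, 9.91 and 8.92 in exposed arrays, against 6.08, 6.36 and 7.04 in control arrays (8.65-fold, adjusted p = 7.75e-09). The CYP2C genes of the pig resemble one another, so the signal of this probe set may include a relative. EPHX1, microsomal epoxide hydrolase, rose 1.69-fold (adjusted p = 0.0253), but not without exposed array 1 (0.73, adjusted p = 0.0659), exposed array 3 (0.69, adjusted p = 0.121), control array 2 (0.53, adjusted p = 0.248) or control array 3 (0.75, adjusted p = 0.0614), and of 18 members these were the only 3 called (median 0.0277).

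Of 26 growth factor and receptor genes 3 rose and 4 fell (median 0.0109), where 11.5% of all genes rose and 2.88% fell. The ligands IGF1 (2.19-fold), TGFB1 (1.59-fold) and FGF7 (1.34-fold), the last a fibroblast-made mitogen for keratinocytes, rose (adjusted p = 1.66e-05, 0.00627 and 0.0413). The receptors FGFR2, which binds FGF7 on keratinocytes, BMPR1A, IGF1R and EGFR fell 1.79-fold, 1.67-fold, 1.49-fold and 1.46-fold (adjusted p = 0.0125, 0.0112, 0.0138 and 0.0386). IGF1 alone of these 7 kept its call without each array in turn. The call of FGFR2 was lost without exposed array 1 (-0.76, adjusted p = 0.0547) or control array 2 (-0.77, adjusted p = 0.0732), that of BMPR1A without exposed array 3 (-0.47, adjusted p = 0.205) or control array 2 (-0.56, adjusted p = 0.141), and that of IGF1R without exposed array 3 (-0.56, adjusted p = 0.0578) or control array 1 (-0.41, adjusted p = 0.123). TGFB1 lost its call without control array 2 (0.59, adjusted p = 0.0606), EGFR without any 1 array but control array 3 (-0.59 to -0.47, adjusted p = 0.0508 to 0.15), and FGF7 without any 1 array but exposed array 3 (0.30 to 0.46, adjusted p = 0.078 to 0.233).

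Genes of other tissues in the biopsy gave a background for these lists. None of 25 skeletal muscle genes passed, with differences of -1.67 to -0.17 and a median of -1.19, and none of 17 adipocyte genes (median -0.078), of which 1 rose without control array 1. The member farthest from 0 in each was ATP2A1, the muscle calcium pump (-1.67, adjusted p = 0.68; -2.97 without control array 3 and -0.32 without exposed array 2), and PCK1 (0.63, adjusted p = 0.372). None of 8 melanocyte, 8 hair follicle and gland, or 6 red cell and platelet genes passed (medians -0.00463, 0.241 and 0.0372). Their farthest members were EDNRB (0.37, adjusted p = 0.0953), KRT18 (0.39, adjusted p = 0.354) and HBB (-0.57, adjusted p = 0.0818). EDNRB, the endothelin receptor of melanocytes, passed as the mean of its probe sets (0.34, adjusted p = 0.00947). HBB, a globin chain, passed without exposed array 2 or control array 1, and its difference was -0.82 to -0.26 without any 1 array. Of 12 smooth muscle and pericyte genes PLN, phospholamban, fell (1.77-fold lower, adjusted p = 0.0397, median -0.0887), a call lost without any 1 array but control array 1 (-0.86 to -0.65, adjusted p = 0.0667 to 0.241).

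Nerve and Schwann cell genes changed in 4 of 9 cases, 1 up and 3 down (median -0.0646), where 11.5% of all genes rose and 2.88% fell. STMN2, a microtubule regulator of growing axons, had 6.57, 6.03 and 5.97 in exposed arrays, against 8.06, 8.70 and 7.69 in control arrays (3.89-fold lower, limma adjusted p = 0.00435). NCAM1, a neural adhesion protein, and S100B of Schwann cells fell 1.82-fold and 1.38-fold (adjusted p = 0.00495 and 0.0432), while UCHL1, a neuronal ubiquitin hydrolase, rose 2.18-fold (adjusted p = 0.0105). Of these calls STMN2 was lost without control array 2 (-1.69, adjusted p = 0.0509), UCHL1 without control array 3 (1.01, adjusted p = 0.0544), and S100B without exposed array 2 (-0.39, adjusted p = 0.167), exposed array 3 (-0.47, adjusted p = 0.122) or control array 1 (-0.23, adjusted p = 0.398). Of 7 circadian clock genes RORA and CRY2 fell 2.28-fold and 1.64-fold (adjusted p = 0.000168 and 0.00374, median -0.262) and none rose.

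Several of the strongest changes lay outside the lists. ABHD12B fell 3.91-fold, RHBG, an ammonium transporter, 3.4-fold, and MAP2, a microtubule protein best known from neurons, 2.98-fold (adjusted p = 0.00013, 7.13e-06 and 0.000693). HOXA9, a homeobox factor whose level depends on body position, had 7.88, 7.71 and 7.87 in exposed arrays, against 10.02, 10.22 and 8.68 in control arrays (3.52-fold lower, limma adjusted p = 0.000239). The sham array had 8.02 for HOXA9, close to the exposed arrays, and against it the exposed arrays differed by -0.20 (adjusted p = 0.888). AMELX, the X-linked amelogenin known as an enamel protein, had 8.90, 7.65 and 6.08 in exposed arrays, against 4.68, 4.56 and 4.66 in control arrays (7.52-fold, adjusted p = 3.7e-08). Its exposed arrays spanned 2.83 log2 units while its control arrays lay within 0.12. Neither AMELX nor HOXA9 was called in the fit of the 6 arrays of 48 h alone.

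AMELX and 5 other called genes had the widest spread among the exposed arrays, and for all but STC1 exposed array 3 was the lowest. CXCL8 spanned 2.45 units. NUDT6 had 9.41, 9.49 and 7.71 in exposed arrays, against 6.90, 7.45 and 7.98 in control arrays, so that exposed array 3 lay below control array 3 (2.68-fold higher on average, limma adjusted p = 0.00168). KIAA1109 had 8.33, 8.46 and 6.76 in exposed arrays, against 8.22, 9.06 and 8.57 in control arrays, and ZRANB2, a splicing factor, had 10.63, 10.56 and 9.20 in exposed arrays, against 10.24, 11.22 and 11.13 in control arrays. Both were called as lower (1.71-fold and 1.66-fold, adjusted p = 0.0402 and 0.0457), but their groups overlapped. The calls were lost without exposed array 3 (-0.22 and -0.27, adjusted p = 0.71 and 0.659), without control array 2 (-0.55 for both, adjusted p = 0.303 and 0.286) and without control array 3 (-0.79 and -0.60, adjusted p = 0.0757 and 0.188). STC1, a secreted glycoprotein, had 10.24, 8.96 and 10.53 in exposed arrays, against 8.55, 7.98 and 8.32 in control arrays (3.09-fold, adjusted p = 0.00824), and was not called without exposed array 3 (1.32, adjusted p = 0.0909) or control array 2 (1.48, adjusted p = 0.0607). In the fit of the 6 arrays of 48 h alone NUDT6, KIAA1109, ZRANB2 and STC1 were not called. They were no exceptions, since 42 of 116 values of named genes for 48 h against control lost their call in that fit. CTSS, ERCC1, GSTO1, GSDMD, BAD, MIF and PSAT1, named above, were among these.

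The next question was whether the 48 h differences had their own size or were those of the neighbouring times. At 24 h 2456 genes were called (36.3%; 24.9% of genes higher and 11.4% lower), at 48 h 971, and at 72 h 896 (13.2%; 9.12% higher and 4.12% lower), where 5.4% of probe sets were higher and 4.25% lower. Of the 971 genes called at 48 h 758 were among the 2456 of 24 h with the same direction. The difference between the 48 h and the 24 h response passed the threshold for 497 probe sets (2.07%), 210 above (0.875%) and 287 below (1.2%). Over genes it was 218 (3.22%), 72 above (1.06%) and 146 below (2.16%). For the 48 h against the 72 h response no probe set passed in limma (0%). An unadjusted limma p below 0.05 was found for 880 of 23999, less than the share of 0.05 that no difference would give on average. Probe sets of the same arrays vary together, so this share is a description and does not show that the responses were equal. The muscle score differed more at 24 h, where it was 8.65, 7.45 and 7.23 in exposed arrays against 11.09, 11.28 and 9.91 in control arrays. The 24 h and 48 h arrays were also processed in different periods, though each response was formed within its own time. Unlike those of 48 h, the exposed and control arrays of 24 h were spread over more than 1 batch of extraction, labelling and scanning. Their extraction and scanning batches were uneven between the groups, and the part of these batches was not tested. The count of 497 was 757 once the muscle score entered as a covariate, 248 without control array 2, 312 without exposed array 1, 328 without exposed array 2, 769 without control array 1, and 188 without the exposed and the control array with the lowest muscle scores.

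In the cell cycle list 9 of 34 members had a 48 h response above that at 24 h, against 1.06% of all genes, and 1 had one below, against 2.16%. CCNB1, cyclin B1, which drives entry into mitosis, had differences of -0.97, 0.64 and 0.59 at 24, 48 and 72 h, and its 48 h response was above that at 24 h by 1.62 (limma adjusted p = 0.00253). AURKB, the kinase of chromosome segregation, had -0.43, 0.45 and 0.33 (difference 0.89, adjusted p = 0.000826), and BIRC5, its partner survivin, -0.23, 0.93 and 0.76 (difference 1.15, adjusted p = 0.0173), the second not called without exposed array 2 (1.01, adjusted p = 0.0705) or control array 2 (1.13, adjusted p = 0.0527). PCNA went the other way, with 1.86, 1.06 and 0.57 (difference -0.80, adjusted p = 0.021), a call lost without exposed array 3 (-0.74, adjusted p = 0.0541) or control array 2 (-0.80, adjusted p = 0.0543). The number of list members above was 4 without control array 2, 5 without exposed array 2, 6 without exposed array 1, 10 with a covariate for the muscle score and 2 without the exposed and the control array with the lowest muscle scores.

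In the heat shock and unfolded protein list 6 of 28 members had a 48 h response below that at 24 h, against 2.16% of all genes, and none above, against 1.06%. HSPA5, the chaperone BiP of the endoplasmic reticulum, had 1.43, 0.29 and 0.46 at 24, 48 and 72 h (difference -1.14, limma adjusted p = 0.000826). HSPA8, the constitutive cytosolic member, had 1.12, 0.14 and 0.39 (difference -0.97, adjusted p = 0.021; without control array 2 -0.89, adjusted p = 0.079; as the mean of its probe sets -0.06, adjusted p = 0.898), and DNAJB9, a cochaperone of BiP, 1.32, 0.42 and 0.59 (difference -0.90, adjusted p = 0.0126). Of this list 19 of 28 had risen at 24 h, when 24.9% of all genes had, and 3 at 48 h, when 11.5% had. The number below was 3 without control array 2, 4 without exposed array 1, exposed array 2 or control array 3, 7 with a covariate for the muscle score and 2 without the exposed and the control array with the lowest muscle scores.

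**Figure D4:**
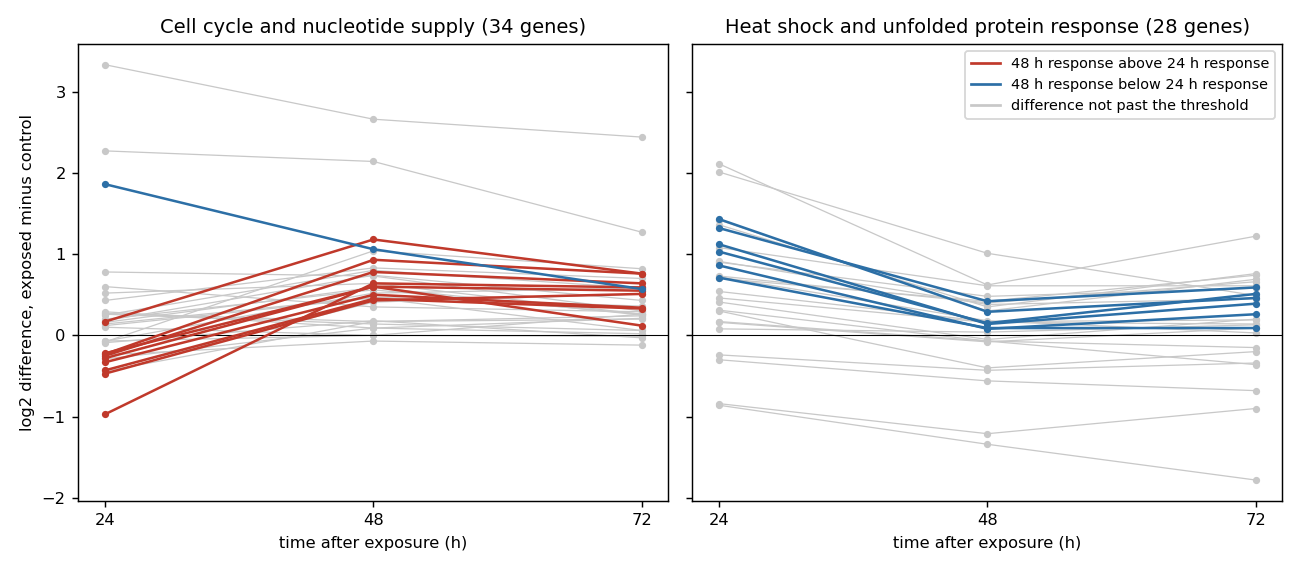
Log2 difference, exposed minus control, at 24, 48 and 72 h for the measured members of the cell cycle list (left, 34 genes) and the heat shock and unfolded protein list (right, 28 genes). Each line is 1 gene; red marks a 48 h response above that at 24 h and blue one below, past an adjusted p of 0.05 for the difference between the times. The 9 red lines on the left begin at or below 0.17 at 24 h and lie between 0.43 and 1.18 at 48 h, and the 6 blue lines on the right lie between 0.08 and 0.42 at 48 h.

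By the naming rule the genes farthest above their 24 h response were ACP5, tartrate-resistant acid phosphatase of macrophages and osteoclasts, PKIB, CCNB1, ENPP2, APOA1 and PAMR1. PKIB was not called without exposed array 1, exposed array 2 or control array 2 (1.62 to 1.68, adjusted p = 0.0572 to 0.06). ACP5 had 11.37, 10.56 and 10.45 in exposed arrays at 48 h, against 9.36, 9.19 and 9.22 in control arrays, and its difference was -0.66, 1.54 and 0.76 at 24, 48 and 72 h (48 h above 24 h by 2.20, limma adjusted p = 0.00121). ENPP2, autotaxin, APOA1 and PAMR1 had fallen at 24 h by 1.95, 1.37 and 1.46 on the log2 scale, and at 48 h gave -0.48, 0.10 and -0.00 (adjusted p = 0.16, 0.854 and 0.999). Farthest below were NPM3, TIMM8A, SRM, HSPA13, ODC1 and PNPT1, of which HSPA13 was not called without exposed array 3, control array 2 or control array 3 (-1.20 to -1.10, adjusted p = 0.097 to 0.115). NPM3, a nucleolar chaperone, had risen by 2.72 at 24 h and rose by 0.92 at 48 h (adjusted p = 0.0196), and the mitochondrial import protein TIMM8A gave 1.84 and 0.36 (adjusted p = 2.76e-12 and 0.119). The polyamine enzymes ODC1 and SRM belonged here as well, at 2.27 and 2.06 at 24 h against 0.92 and 0.67 at 48 h.

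The sham array allowed a second baseline. It shares the exposed arrays with the comparison above, and, being single, is assumed to vary like the other groups. Against it 2208 probe sets were called (9.2%), 1059 higher (4.41%) and 1149 lower (4.79%), and over genes 602 rose (8.9%) and 211 fell (3.12%). Against sham, 14 of 26 neutrophil and macrophage markers rose, 11 of 36 cytokine and chemokine genes rose and 2 fell, and 7 of 12 differentiated keratinocyte genes fell. The members were not all the same as against control, since KRT2, S100A9 and C1QTNF3 were not called against sham. The rises numbered 8 against sham and 20 against control among cell cycle genes, 1 and 4 among activated keratinocyte genes, 3 and 5 among fibroblast and matrix genes, and 5 and 8 among matrix proteases. These counts are of unlike precision, with a median SE over probe sets of 0.187 against sham and 0.132 against control. Fewer calls against sham are therefore no measure of smaller differences. THBS1 gave 0.51 against sham (adjusted p = 0.617). SULT1E1, SERPINB7 and CCL28 had 10.39, 11.41 and 10.29 in the sham array, above every control array. The count of 2208 was 1120 without exposed array 3. Sham minus control gave 2 probe sets past the threshold in limma (0.00833%), both higher: 1 without a symbol and 1 of the 3 probe sets of GSTA1, a glutathione transferase, that was not its brightest, so no gene counted as called. There were 976 of 23999 probe sets with an unadjusted limma p below 0.05, again less than a share of 0.05 and again a description only.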

How the data were processed

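Skin RNA was measured on Affymetrix porcine arrays, 63 in 27 groups. The authors deposited RMA signals on the log2 scale; RMA and Partek are named, without versions, per the submitters' processing notes. Array medians at 48 h were 7.76 to 7.80, so nothing was rescaled. An array has no read depth; the number of arrays limits precision. RMA compresses differences near the ends of its scale. No 2 arrays of 48 h shared more than 6 identical values.

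Of 23999 tested probe sets 10069 had 1 symbol in the supplied annotation, 198 several and 13732 none, and 9961 matched RefSeq genes of Sscrofa11.1 by gene number. For 2261 of 6765 genes with several probe sets, the probe set with the highest mean across the series was taken.

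A single model of all 63 arrays was fitted in limma 3.58.1 (R 4.3.3) with 1 mean per group and no block, 36 residual and 3.24 prior degrees of freedom. P values are two-sided, with Benjamini-Hochberg adjustment across every tested probe set. The procedure was tested on simulated data. Alternatives covered the arrays in the fit, the replicate number as a block, each array left out, dim probe sets, normalization, muscle score, variance model, size of change, sham as control and the mean of a gene's probe sets; leaving out 2 pairs of arrays and using the sacrifice day were alternatives chosen after seeing the data. The 33 gene lists, the comparison and the genes named were chosen with earlier results of these data known.

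Named genes were, at 48 h, the 15 largest rises and 15 largest falls past the threshold with 1 sign in the 3 same-numbered pairs; in each list up to 4 members in each direction past the threshold, or the 1 farthest from 0; the 6 farthest in each direction for each difference between times; the 6 called genes of widest range among exposed arrays; and 5 in each direction for sham. Further list members were named after their values were seen.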

Additional observations from a re-analysis of the deposited data

Results flagged for a closer look

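For 32 named genes the 48 h response differed from the 24 h response by limma's test of the difference itself (adjusted p below 0.05). All values here are the 48 h minus the 24 h log2 difference between exposed and control arrays. The genes were chosen from the lists after their values were seen, except the 12 that the naming rule gives. No such gene was found for 48 h against 72 h. Without 1 array in turn, at least 1 of the 6 fits ended the call of AURKA, BIRC5, CDC20, HSD17B8, HSP90B1, HSPA13, HSPA8, HSPA9, HSPD1, IGFBP5, NUSAP1, PCNA, PKIB and UBE2C. With the mean of a gene's probe sets HSPA8 (-0.06), UBE2C (0.50) and TGFB2 (0.73) lost theirs.

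Cell cycle genes above their 24 h response were CCNB1 (1.62), BIRC5 (1.15), CCNB2 (1.02), UBE2C (1.01), CDC20 (0.90), AURKA (0.89), AURKB (0.89), NUSAP1 (0.83) and PTTG1 (0.83), all of them known for roles in mitosis. PCNA, of DNA replication, was below (-0.80).

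Chaperone genes below their 24 h response were HSPA5 (-1.14), HSPA8 (-0.97), DNAJB9 (-0.90), HSP90B1 (-0.88), HSPD1 (-0.78), HSPA9 (-0.62) and HSPA13 (-1.38). The polyamine enzymes SRM (-1.39) and ODC1 (-1.35), the nucleolar chaperone NPM3 (-1.80), the mitochondrial import protein TIMM8A (-1.48) and PNPT1 (-1.34), an RNA-degrading enzyme of mitochondria, were below as well.

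Above their 24 h response stood ACP5 (2.20), PKIB (1.69), ENPP2 (1.47), APOA1 (1.46) and PAMR1 (1.46). So did DDB2, a p53 target that recognises damaged DNA (1.39), the growth factor TGFB2 (1.37), IGFBP5 (1.14), the carbonic anhydrase CA9 (0.81) and HSD17B8 (0.62).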

How the results depend on the processing

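At 48 h the same-numbered residuals correlated at -0.181, 0.124 and -0.345, so by the rule that every pair exceed 0.1 the numbers were not taken to pair them, although all 3 pairs did so at 1, 4, 72, 336 and 514 h. After the muscle score was taken out the values at 48 h were -0.295, 0.594 and -0.0499. Pair 1 and pair 3 still failed the rule, while pair 2 passed it clearly. With time by number as a replicate block 3373 probe sets were called, against 2387, and for 48 h minus 24 h 1085 (505 above, 580 below). With only the 6 arrays of 48 h the counts were 924 (583 higher, 341 lower) without and 163 (103 and 60) with the replicate block; a log2 difference of at least 1 left 370 (239 and 131). Leaving out each array gave 1097 to 2610 (699 to 1403 higher, 398 to 1207 lower); for 48 h minus 24 h 248 to 769 (95 to 308 above, 153 to 461 below), for 48 h minus 72 h 0 to 1 (higher 0 to 1), for exposed minus sham 1120 to 2356 (591 to 1095 higher, 529 to 1261 lower), and for sham minus control 1 to 4 (higher 1 to 2, lower 0 to 2). Without exposed array 2 and control array 3, of lowest muscle score, 652 were lower at 48 h, 48 h minus 24 h gave 188 (57 above, 131 below), 48 h minus 72 h 1, higher, and sham minus control 1, higher. Within the first sacrifice day 1274 were called (822 and 452) and 48 h minus 72 h gave 1, higher; with that day as a term sham minus control gave 1 lower. Without exposed array 3 and control array 1 the counts were 1026 (695 and 331), 1 (higher) for 48 h minus 72 h, and 1219 (624 and 595) for exposed minus sham. With the muscle score as a covariate 48 h minus 24 h gave 757 (335 above), exposed minus sham 702 lower, and sham minus control 1, higher; with the arrays of 2, 48 and 336 h alone exposed minus sham gave 704 lower and sham minus control 1, higher; without the dimmest 25% of probe sets sham minus control gave 0. The adipocyte mean turned to -0.08 without exposed array 3 and to -0.11 without control array 2 (range -0.11 to 0.08), and ATP2A1 gave 3.22 against sham. The causes were not tested. Of 148 values of named genes 141 kept direction and call with renewed quantile normalization, 144 with the muscle score, 146 of 146 without the dimmest 25%, and 101 without control array 2. Of the 116 values of 48 h against control 74 did so with only its 6 arrays, 43 with those and the block, and 88 against sham. With the mean of a gene's probe sets CD80 (0.16), HSPA4 (0.20) and IGF1R (-0.27) lost their calls and EDNRB (0.34) gained one.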
